A study of Mus musculus with 5 samples.

Results

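The mitochondrial genome carries 13 protein genes, 2 ribosomal RNA genes and 22 transfer RNA genes, and all 37 are described here in follicular regulatory T (Tfr) cells with and without Cebpa. They were taken as every annotated gene whose name begins with mt-, which is 37 of 57186 annotated genes in the tables. All of the 13 protein genes, both ribosomal RNA genes and 20 of the 22 transfer RNA genes passed the filter on low values, so 35 of the 16254 genes tested were mitochondrially encoded. Tfr cells are a branch of the Foxp3+ regulatory lineage found in B cell follicles, where they limit antibody responses.

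RNA was sequenced from 2 Cebpa_KO and 3 WT libraries of Tfr cells, sorted from mouse spleen as live CD4+ cells that carried ICOS, PD-1, CXCR5 and Foxp3. Cebpa_KO mice were Foxp3-Cre Cebpa-flox/flox, so a Cre driven by Foxp3 removes Cebpa, which encodes the transcription factor C/EBP alpha, wherever Foxp3 is active. WT mice were Foxp3-GFP reporter mice with no Cre named in the labels. Both groups had been given imiquimod, which activates TLR7, and were sampled after 21 days. A library is a pool of cells from several mice, and the p-values below therefore reflect variation from pool to pool.

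Mitochondrial DNA is a small circular genome that each cell holds in many copies. It is copied and transcribed by nuclear-encoded enzymes, and its RNA is made as long precursors that span most of a strand. In most places transfer RNAs sit between the longer genes and are cut out at both ends, which frees the messenger and ribosomal RNAs. The protein genes encode core subunits of the respiratory chain and of ATP synthase, and the ribosomal and transfer RNAs serve only the ribosomes inside mitochondria. The cDNA kit, SMART-Seq v4, primes on poly(A) tails, which mature transfer RNAs lack. How much of the transfer RNA signal came from uncut precursors was not tested.

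The sequences below are those of the 4 transfer RNA genes whose levels passed the test, with the anticodon in capitals in DNA letters. Each is printed 5′ to 3′ on the gene's own strand. They are GENCODE M21 transcripts of the GRCm38 release, matched by gene ID. That release gives the same start, end, strand and length as the deposited mm39 tables for 37 of 37 genes, and the coordinates are those of the tables. The isoleucine (mt-Ti), glutamine (mt-Tq) and methionine (mt-Tm) transfer RNA genes are neighbours, at chrMT:3706-3774 on the + strand, chrMT:3772-3842 on the - strand and chrMT:3845-3913 on the + strand. The arginine gene (mt-Tr) is at chrMT:9808-9875 on the + strand.
mt-Ti: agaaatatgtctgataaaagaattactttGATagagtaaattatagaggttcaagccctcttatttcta
mt-Tq: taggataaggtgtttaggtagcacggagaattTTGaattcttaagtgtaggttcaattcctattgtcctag
mt-Tm: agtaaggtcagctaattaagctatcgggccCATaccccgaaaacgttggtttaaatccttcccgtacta
mt-Tr: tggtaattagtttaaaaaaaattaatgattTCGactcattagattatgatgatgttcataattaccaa

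Genes of this genome are packed so closely that 9 neighbouring pairs overlap, 3 of them on opposite strands. Whether reads were assigned by strand is not given in the sources used here, and reads in those overlaps cannot be told apart. Elsewhere, too, reads over a gene are not known to come from RNA of its own strand. The next sequences show a pair on opposite strands whose levels are set side by side further on. The serine transfer RNA gene mt-Ts1, at chrMT:6870-6938 on the - strand, and the last 60 bases of mt-Co1, at chrMT:6813-6872 on the + strand, share the 3 bases in capitals.
mt-Ts1: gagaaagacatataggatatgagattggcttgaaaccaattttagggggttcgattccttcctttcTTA
mt-Co1 last bases: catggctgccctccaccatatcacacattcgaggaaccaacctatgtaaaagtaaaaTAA
The longest overlap is that of the ATP synthase genes mt-Atp8 and mt-Atp6, where the 43 bases in capitals, chrMT:7927-7969, are read in both genes on the + strand; the printed stretch is chrMT:7897-7999. A read inside them belongs to both genes.
mt-Atp8 and mt-Atp6 junction: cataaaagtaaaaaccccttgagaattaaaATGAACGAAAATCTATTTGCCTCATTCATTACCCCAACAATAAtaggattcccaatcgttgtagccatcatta

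Among the 13 coding sequences, 9 open with ATG. The others open with GTG in mt-Nd1, ATA in mt-Nd2, ATT in mt-Nd3 and ATC in mt-Nd5, which mitochondrial ribosomes also read as starts. The stop is TAA in 8 and TAG in 2, while mt-Co3, mt-Nd4 and mt-Cytb end in a bare T that becomes a stop only when the poly(A) tail is added. mt-Nd6 is the one protein gene on the - strand, and its own strand holds 28.1% G and 5.97% C, against 5.88% to 16.1% G and 22.1% to 29.97% C in the other 12. The - strand also carries 8 of the 22 transfer RNA genes.

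Aligned depth was 6.76 to 7.08 gigabases per library, and 15250 to 15691 genes reached 1 TPM, a level per transcript length and library total. Levels are TPM divided by a factor per library, and the factors lay between 0.984 and 1.04. Cebpa was at 0.317 and 0.550 in Cebpa_KO libraries and at 12.9, 17.7 and 12.8 in WT libraries, with a log2 fold change of -3.42 ± 0.20 (SE; limma, adjusted p = 0.0037) and an exact two-sided permutation p of 0.1, the smallest that 2 against 3 libraries allow. Without Cebpa_KO replicate 2 its limma adjusted p was 0.0512. Foxp3 was at 6.74 and 5.58 in Cebpa_KO libraries and at 83.0, 107 and 105 in WT libraries. Xist was at 11.4 and 10.7 in Cebpa_KO libraries and at 0.0220 or less in WT libraries, while 4 Y-linked genes summed to 0.0311 or less in Cebpa_KO libraries and to 151 to 162 in WT libraries. Deletion of Cebpa, the Foxp3 allele and the sex of the mice therefore cannot be told apart in any result below. T cell markers summed to 9224 and 9674 in Cebpa_KO libraries and to 13140, 11955 and 13576 in WT libraries, with none of the 7 at 0 in every library. Regulatory and follicular T cell markers, Foxp3 among them, summed to 1552 and 1512 in Cebpa_KO libraries and to 2464, 2257 and 2143 in WT libraries. Limma called 4 of the 7 T cell markers and 6 of the 8 regulatory and follicular markers lower and 0 higher, where 9.82% of all genes were lower, and their part in the mitochondrial values was not tested.

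All 13 protein genes had a lower mean in Cebpa_KO than in WT, but none passed the test. Their summed level was 8280 and 8755 in Cebpa_KO libraries, against 9945, 12563 and 20948 in WT libraries. Both Cebpa_KO libraries lay below all 3 WT libraries, and WT replicate 3 stood well above the rest. The means were 8517 ± 336 (SD, n = 2) in Cebpa_KO and 14485 ± 5748 (SD, n = 3) in WT, a ratio of 0.588. Against WT replicates 1 and 2 alone the ratio was 0.757, and against WT replicate 3 alone it was 0.407. In bulk RNA, fewer mitochondria, fewer genome copies and less RNA per copy cannot be told apart, nor can fewer cells of a type and less RNA per cell.

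All 37 genes together took 0.379% and 0.410% of aligned bases in Cebpa_KO libraries, against 0.435%, 0.564% and 0.919% in WT libraries. The protein genes made up most of it, at 0.332% and 0.348% in Cebpa_KO libraries and 0.387%, 0.504% and 0.813% in WT libraries. Transfer RNA genes took 0.00172% or less in each library. These shares leave out 7 near-identical nuclear copies, described further on. Their summed level was 4428 and 4648 in Cebpa_KO libraries and 5576, 6885 and 12179 in WT libraries. How reads were divided between genes and copies was not tested.

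**Figure D1:**
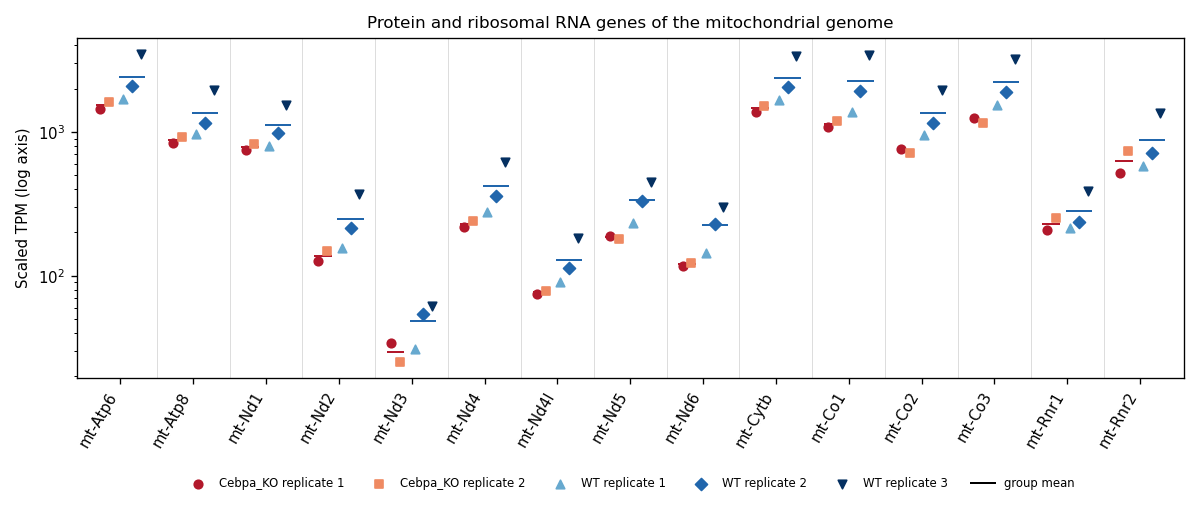
Scaled TPM (log axis) of the 13 protein genes, grouped by complex, and the 2 ribosomal RNA genes, with 1 point per library, Cebpa_KO left of WT, and a bar at each group mean. WT replicate 3 is the highest point for each gene. For 11 of the 13 protein genes both Cebpa_KO points lie below all WT points, as for 28.0% of all genes tested.

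Cytochrome c oxidase (complex IV), which passes electrons to oxygen, has its 3 catalytic core subunits in this genome. Its largest subunit, mt-Co1, was at 1087 and 1194 in Cebpa_KO libraries and at 1384, 1932 and 3456 in WT libraries. mt-Co2, which takes electrons from cytochrome c, was at 762 and 718 in Cebpa_KO libraries and at 958, 1146 and 1944 in WT libraries. mt-Co3, the third core subunit, was at 1250 and 1154 in Cebpa_KO libraries and at 1534, 1911 and 3208 in WT libraries. The groups did not overlap for any of these genes. The log2 fold changes were -0.88 ± 0.38 for mt-Co1, -0.80 ± 0.30 for mt-Co2 and -0.81 ± 0.32 for mt-Co3 (SE; limma, adjusted p = 0.157, 0.121 and 0.126). The sum of these genes was 0.529 times WT in Cebpa_KO, the lowest of the 4 complexes, whose other ratios lay between 0.616 and 0.638.

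mt-Cytb is the only subunit of complex III that mitochondria encode, and it carries the complex's quinone sites. It was at 1387 and 1526 in Cebpa_KO libraries and at 1673, 2062 and 3357 in WT libraries, without overlap (log2 fold change -0.64 ± 0.30 (SE), limma, adjusted p = 0.185).

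ATP synthase takes 2 membrane subunits from this genome. mt-Atp6, which forms part of its proton channel, had the highest mean level of the 13 protein genes. It was at 1438 and 1620 in Cebpa_KO libraries and at 1704, 2076 and 3506 in WT libraries. mt-Atp8, a short subunit of the same membrane part, was at 843 and 920 in Cebpa_KO libraries and at 960, 1154 and 1945 in WT libraries. Neither gene overlapped between groups, and their log2 fold changes were -0.60 ± 0.31 and -0.55 ± 0.30 (SE; limma, adjusted p = 0.223 and 0.245). mt-Atp8 stood at 58.6 and 56.8 per 100 of mt-Atp6 in Cebpa_KO libraries and at 56.4, 55.6 and 55.5 in WT libraries. The genes joined in the junction printed above thus kept nearly the same proportion.

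Complex I, which takes electrons from NADH, has 7 membrane subunits here, and their levels spread widely. mt-Nd1, which lies near the quinone site, was more than 2 times above the proton-pumping subunits mt-Nd2, mt-Nd4 and mt-Nd5 in each library. mt-Nd1 was at 749 and 828 in Cebpa_KO libraries and at 802, 982 and 1550 in WT libraries. Here Cebpa_KO replicate 2 was above WT replicate 1, and the log2 fold change, -0.44 ± 0.28 (SE; limma, adjusted p = 0.309), was the smallest of the 13. mt-Nd2 was at 127 and 149 in Cebpa_KO libraries and at 155, 213 and 371 in WT libraries. mt-Nd4 was at 219 and 239 in Cebpa_KO libraries and at 276, 358 and 619 in WT libraries. mt-Nd5 was at 190 and 181 in Cebpa_KO libraries and at 232, 332 and 445 in WT libraries. Those groups did not overlap, and mt-Nd5 had the smallest adjusted p of the 13 protein genes (log2 fold change -0.80 ± 0.27 (SE), limma, adjusted p = 0.0922).

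Of the short complex I subunits, mt-Nd4l and mt-Nd3 were lower in level than those above. mt-Nd6 was above mt-Nd2 in WT replicate 2 and below it in the other libraries. mt-Nd4l, which overlaps mt-Nd4 by 7 bases, was at 75.1 and 78.0 in Cebpa_KO libraries and at 90.6, 112 and 183 in WT libraries. mt-Nd6, alone on the - strand, was at 118 and 123 in Cebpa_KO libraries and at 145, 229 and 302 in WT libraries. mt-Nd3 was the least abundant message, at 34.1 and 24.9 in Cebpa_KO libraries and at 31.03, 53.9 and 61.1 in WT libraries. Only mt-Nd3 overlapped here, with Cebpa_KO replicate 1 above WT replicate 1. mt-Nd6 stood at 61.8 and 67.7 per 100 of mt-Nd5 in Cebpa_KO libraries and at 62.3, 69.0 and 67.9 in WT libraries, a similar proportion. Whether the reads over mt-Nd6 came from RNA of its own strand was not tested. The log2 fold changes of mt-Nd2, mt-Nd3, mt-Nd4, mt-Nd4l and mt-Nd6 were -0.74, -0.66, -0.78, -0.68 and -0.84 (limma, adjusted p = 0.2, 0.189, 0.155, 0.158 and 0.11).

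Set against the whole table, 0 of 13 protein genes were called, where limma at an adjusted p of 0.05 called 9.82% of all genes lower and 9.93% higher in Cebpa_KO. At an unadjusted p under 0.05, limma had 4 of the 13 lower, mt-Nd5, mt-Nd6, mt-Co2 and mt-Co3, against 18.8% of all genes. Cebpa_KO libraries lay below all WT libraries, with no overlap, for 11 of the 13, and for 28.0% of all genes tested. The 13 genes went up and down together from library to library, so these counts are not over independent genes. The median log2 fold change was -0.74 over the 13 and 0.01 over all genes tested.

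WT replicate 3 had the highest level of the 5 libraries for all 13 protein genes, at 1.92 to 2.50 times WT replicate 1. It also set the spread that the test used: without it, limma called mt-Co2 (log2 fold change -0.51, adjusted p = 0.0352) and mt-Co3 (-0.52, adjusted p = 0.0492) lower in Cebpa_KO, where 11.5% of all genes were. With WT replicate 3 as the sole WT library, limma called 12 of the 13 lower, where 4.16% of all genes were; the lone library is there assumed to vary like the others. Without WT replicate 1, limma called mt-Nd5 and mt-Nd6 lower (adjusted p = 0.039 and 0.0351), where 6.32% of all genes were. With either Cebpa_KO library left out it called none, and then only 0.215% or 0.145% of all genes were called in either direction.

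Some other RNAs also set WT replicate 3 apart from the other WT libraries. Hspa1a, a heat shock chaperone induced by stress, was at 1147 and 1238 in Cebpa_KO libraries and at 0.911, 0.684 and 690 in WT libraries. Fos, an immediate early gene, was at 583 and 617 in Cebpa_KO libraries and at 48.2, 66.8 and 619 in WT libraries. For both genes WT replicate 3 was nearer to the Cebpa_KO libraries than to the other WT libraries, whereas for the mitochondrial protein genes it was farthest from them. Plasma cell markers summed to 8245 and 4603 in Cebpa_KO libraries and to 6126, 4887 and 15710 in WT libraries. Erythroid markers summed to 2137 and 235 in Cebpa_KO libraries and to 90.1, 61.0 and 710 in WT libraries, with none of the 6 at 0 in every library. NK cell markers summed to 20.8 and 14.1 in Cebpa_KO libraries and to 49.4, 46.1 and 66.8 in WT libraries. These groups did not overlap and WT replicate 3 was highest, as for the mitochondrial protein genes and the T cell markers. B cell markers summed to 242 and 53.3 in Cebpa_KO libraries and to 132, 132 and 178 in WT libraries. For monocyte and macrophage markers the sums were 134 and 52.0 in Cebpa_KO libraries and 88.9, 62.1 and 115 in WT libraries. Dendritic cell markers stood at 6.12 and 7.11 in Cebpa_KO libraries and at 3.13, 3.56 and 6.26 in WT libraries. Neutrophil markers summed to 319 and 68.2 in Cebpa_KO libraries and to 17.4, 11.8 and 75.3 in WT libraries. Malat1, a nuclear-retained RNA, was at 1371 and 1589 in Cebpa_KO libraries and at 6432, 1514 and 4792 in WT libraries, where WT replicate 2 was the one apart, and Neat1, another, at 5.15 and 13.6 in Cebpa_KO libraries and at 9.51, 11.1 and 5.64 in WT libraries. The part of stress RNA, of other cells and of nuclear RNA in the mitochondrial values was not tested.

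Within the 13, each gene's share of their sum changed far less than the sum did. mt-Co1 took 13.1% and 13.6% of it in Cebpa_KO libraries and 13.9%, 15.4% and 16.5% in WT libraries. mt-Nd1 took 9.05% and 9.46% in Cebpa_KO libraries and 8.06%, 7.82% and 7.40% in WT libraries, the opposite direction. Shares of mt-Atp6 and mt-Atp8 were also higher in both Cebpa_KO libraries than in any WT library, and those of mt-Co3, mt-Nd4 and mt-Nd6 lower. The ratio of the group means of a share, Cebpa_KO over WT, lay between 0.877 for mt-Co1 and 1.19 for mt-Nd1.

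The ribosomal RNA genes did not pass the test and both overlapped between groups. mt-Rnr1, the RNA of the small subunit of the mitochondrial ribosome, was at 209 and 251 in Cebpa_KO libraries and at 216, 235 and 389 in WT libraries. mt-Rnr2, the RNA of the large subunit, was at 522 and 739 in Cebpa_KO libraries and at 581, 715 and 1355 in WT libraries. Apart from WT replicate 3, the libraries of the 2 groups were interleaved. The log2 fold changes were -0.24 ± 0.27 for mt-Rnr1 and -0.41 ± 0.39 for mt-Rnr2 (SE; limma, adjusted p = 0.557 and 0.477). These values rested on WT replicate 3: without it the log2 fold change was 0.018 for mt-Rnr1 and -0.057 for mt-Rnr2. The ratio of the summed ribosomal RNA level, Cebpa_KO over WT, was 0.739 with it and 0.985 without it. Per 100 of the protein sum, the ribosomal RNAs stood at 8.83 and 11.3 in Cebpa_KO libraries and at 8.01, 7.56 and 8.32 in WT libraries, so they were higher relative to the messages in both Cebpa_KO libraries.

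Of the 20 transfer RNA genes tested, limma called 3 lower and 1 higher in Cebpa_KO, against 9.82% and 9.93% of all genes, so neither count stands far from that of the whole table. The 3 that were lower, mt-Ti, mt-Tq and mt-Tm, stand side by side between mt-Nd1 and mt-Nd2. Cebpa_KO libraries lay below all WT libraries for 7 of the 22 and above them for 2, mt-Tr and mt-Tf, while 13 overlapped; over all genes the shares were 28.0% below and 28.7% above. The median log2 fold change of the 20 was -0.51.

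**Figure D2:**
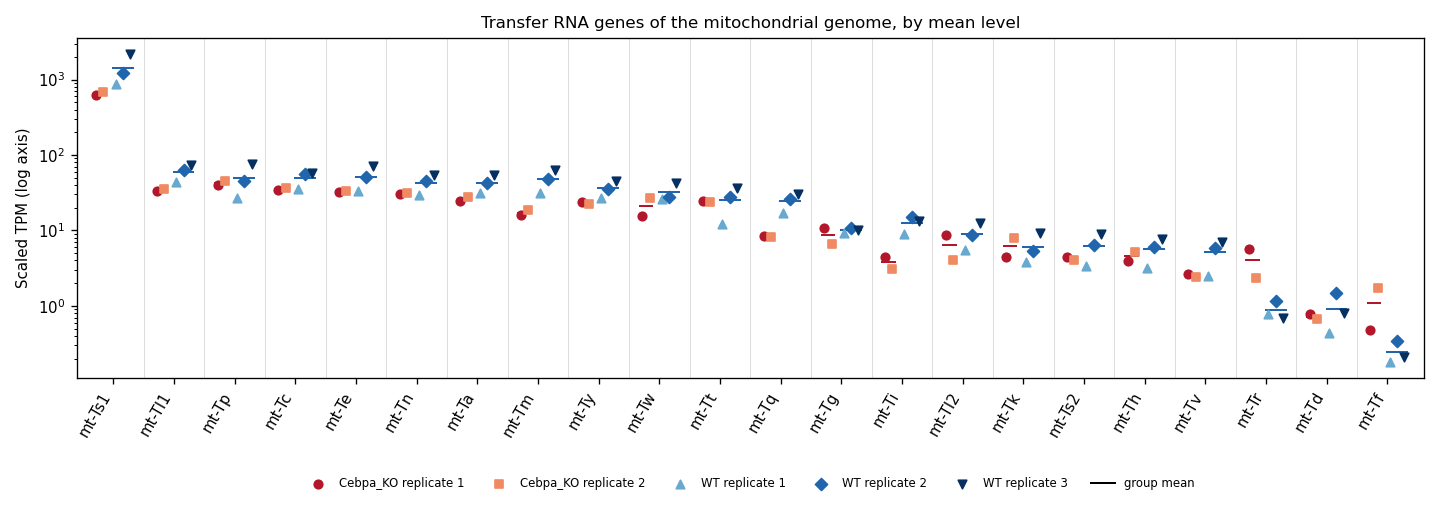
Scaled TPM (log axis) of the 22 transfer RNA genes, ordered by mean level, with 1 point per library, Cebpa_KO left of WT, and a bar at each group mean. mt-Ts1 stands far above the others, mt-Tq, mt-Ti and mt-Tm are lower in both Cebpa_KO libraries than in each WT library, and mt-Tr is higher.

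mt-Ti, which brings isoleucine, was at 4.47 and 3.06 in Cebpa_KO libraries and at 9.05, 15.0 and 13.4 in WT libraries. mt-Tq, which brings glutamine and is read from the - strand, was at 8.49 and 8.19 in Cebpa_KO libraries and at 17.0, 26.5 and 30.2 in WT libraries. mt-Tm, the methionine transfer RNA that also starts each chain, was at 15.8 and 18.7 in Cebpa_KO libraries and at 31.8, 48.7 and 64.0 in WT libraries. None of these groups overlapped, and the lowest WT library was well above the highest Cebpa_KO library for each gene. The means in Cebpa_KO were 0.302, 0.3399 and 0.358 times those in WT, with log2 fold changes of -1.49 ± 0.26 for mt-Ti, -1.41 ± 0.25 for mt-Tq and -1.38 ± 0.29 for mt-Tm (SE; limma, adjusted p = 0.02, 0.0211 and 0.0321). Coverage of these genes was low, at 5.86 to 48.0 reads deep in Cebpa_KO libraries and 17.2 to 149 in WT libraries, beside 3276 to 9738 for mt-Co1 over all 5.

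These 3 genes were also called without WT replicate 1 and without WT replicate 3 (limma, adjusted p between 0.0237 and 0.0314). Without WT replicate 1 there were 7 transfer RNA genes called lower, where 6.32% of all genes were. Without WT replicate 2 the adjusted p was 0.0642, 0.0741 and 0.0977, and without either Cebpa_KO library it was 0.0943 or more for each. The difference from nearby messages was of the same direction. mt-Ti stood at 0.597 and 0.369 per 100 of mt-Nd1 in Cebpa_KO libraries and at 1.13, 1.52 and 0.866 in WT libraries. mt-Tq stood at 1.13 and 0.989 per 100 of mt-Nd1 in Cebpa_KO libraries and at 2.11, 2.69 and 1.95 in WT libraries. mt-Tm stood at 12.4 and 12.6 per 100 of mt-Nd2 in Cebpa_KO libraries and at 20.5, 22.8 and 17.3 in WT libraries. For none of these ratios did the groups overlap, WT replicate 3 included, so the 3 genes were also low relative to nearby messages. mt-Nd1 is not directly beside mt-Tq and lies on the other strand. The groups did overlap for mt-Tl1 per 100 of mt-Rnr2 and for mt-Tw per 100 of mt-Nd2. The ratios were not tested.

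**Figure D3:**
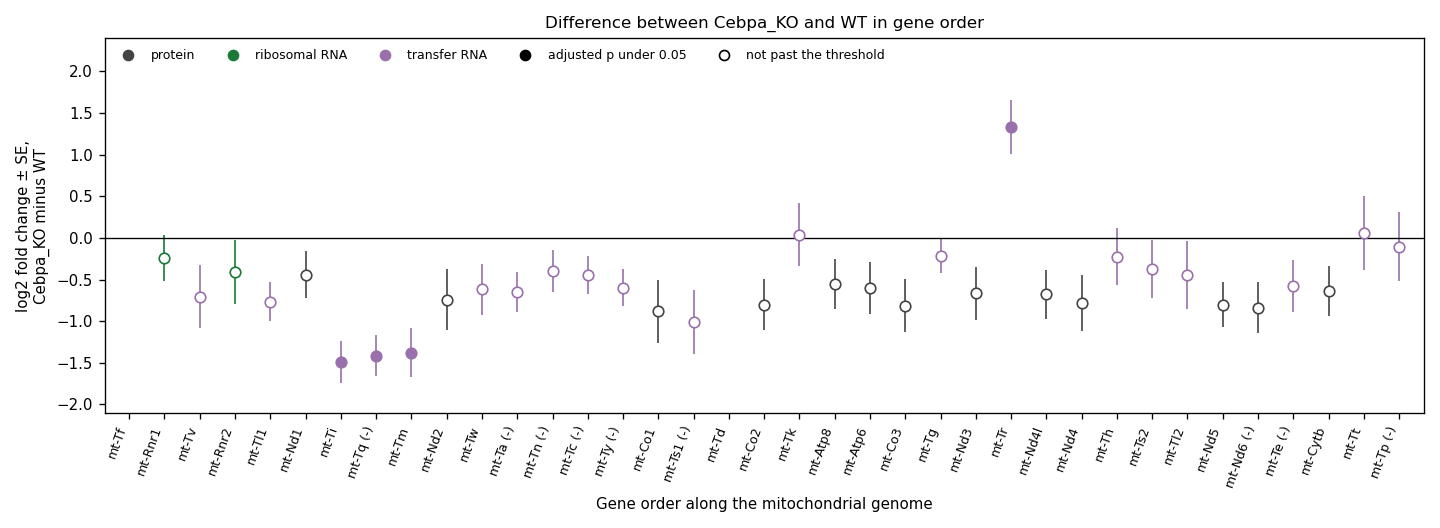
Log2 fold change, Cebpa_KO minus WT, of the 35 tested genes in their order along the mitochondrial genome, with bars of 1 SE; filled points passed an adjusted p of 0.05 in limma and (-) marks genes on the - strand. The filled points below 0 are the adjacent genes mt-Ti, mt-Tq and mt-Tm, from -1.49 to -1.38, and the only filled point above 0 is mt-Tr at 1.34.

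mt-Tr, which brings arginine, was at 5.68 and 2.35 in Cebpa_KO libraries and at 0.790, 1.17 and 0.689 in WT libraries. It was the only member called higher, with a log2 fold change of 1.34 ± 0.33 (SE; limma, adjusted p = 0.0444). Its neighbours mt-Nd3 and mt-Nd4l were not higher, so mt-Tr stood at 16.6 and 9.44 per 100 of mt-Nd3 in Cebpa_KO libraries and at 2.55, 2.18 and 1.13 in WT libraries. Coverage was 17.1 and 6.94 in Cebpa_KO libraries and 2.29, 3.59 and 1.94 in WT libraries, and the adjusted p was between 0.0683 and 0.169 when any 1 library was left out. mt-Tf, the phenylalanine gene, was at 0.483 and 1.71 in Cebpa_KO libraries and at 0.177, 0.347 and 0.209 in WT libraries. mt-Td, the aspartate gene, was at 0.777 and 0.663 in Cebpa_KO libraries and at 0.438, 1.46 and 0.801 in WT libraries. These 2 genes were too low to be tested.

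By mean level the highest transfer RNA genes were mt-Ts1, mt-Tl1, mt-Tp, mt-Tc, mt-Te and mt-Tn. mt-Tl1 (leucine), which follows mt-Rnr2, was at 32.8 and 35.6 in Cebpa_KO libraries and at 43.4, 62.5 and 74.8 in WT libraries, without overlap. mt-Tp (proline) was at 39.5 and 45.2 in Cebpa_KO libraries and at 27.2, 45.5 and 76.3 in WT libraries, with Cebpa_KO inside the WT range. Neither passed the test (limma, adjusted p = 0.0736 and 0.868). mt-Tc (cysteine) was at 34.5 and 36.7 in Cebpa_KO libraries and at 35.6, 56.7 and 57.2 in WT libraries. mt-Te (glutamate) was at 32.2 and 33.1 in Cebpa_KO libraries and at 33.1, 50.6 and 71.2 in WT libraries, and mt-Tn (asparagine) at 30.8 and 31.5 in Cebpa_KO libraries and at 29.4, 44.8 and 53.8 in WT libraries. In these 3 genes WT replicate 1 was level with the Cebpa_KO libraries. The other tested genes, mt-Tv, mt-Tw, mt-Ta, mt-Ty, mt-Tk, mt-Tg, mt-Th, mt-Ts2, mt-Tl2 and mt-Tt, had log2 fold changes of -0.71 to 0.06, none called by limma (adjusted p of 0.115 or more).

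mt-Ts1 needs its own reading. Its level was 630 and 692 in Cebpa_KO libraries and 883, 1212 and 2211 in WT libraries, far above every other transfer RNA gene, yet its deposited coverage was only 4.34 and 2.52 in Cebpa_KO libraries and 5.00, 5.91 and 8.09 in WT libraries. The deposited TPM was 438 to 810 times what the coverage gives in the same library. For mt-Tq that factor was 2.86 to 4.36, and for every other member it was under 2. Over all genes with a TPM of at least 1, the factor was over 10 for 1.95% to 2.19% of genes per library. The level of mt-Ts1 followed that of mt-Co1, which it overlaps by the 3 bases printed above, at 58.0 per 100 of mt-Co1 in both Cebpa_KO libraries and at 63.8, 62.7 and 64.0 in WT libraries. How the deposited TPM of mt-Ts1 was arrived at is not known, and the part of the overlap was not tested. The summed level of the 22 transfer RNA genes, 0.511 times WT in Cebpa_KO, was 0.650 times WT without mt-Ts1. With levels taken from coverage, limma still called mt-Ti, mt-Tq and mt-Tm lower (adjusted p = 0.0115, 0.0132 and 0.0408) and mt-Tr higher (adjusted p = 0.0341), where 13.2% of all genes were called lower and 13.5% higher.

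Much of this genome has near-identical copies in nuclear DNA, and reads of such members cannot be placed with certainty. A search of annotated transcripts for words of 31 bases shared with a member, made after the values were seen, found 12 nuclear genes with at least 100 such words. Of these, 7 lie together on chromosome 1, from 24650616 to 24655278 in mm39, and match parts of chrMT:6390-11042. In 5 of them every aligned base is identical and in the other 2 a single base differs. That stretch of mitochondrial DNA holds 11 whole members, which are mt-Co2, mt-Atp8, mt-Atp6, mt-Co3, mt-Nd3, mt-Nd4l and 5 transfer RNA genes, mt-Ts1 and mt-Tr among them. No copy had mt-Atp8 or a transfer RNA gene as its best match. Nuclear bases between the annotated copies were not compared, so whether those members have copies there is not known. mt-Ti, mt-Tq and mt-Tm lie outside the stretch.

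Several copies had levels close to those of the genes themselves. Gm28661, a copy of mt-Co2, was at 758 and 715 in Cebpa_KO libraries and at 955, 1141 and 1934 in WT libraries, which is 99.5% to 99.7% of mt-Co2 in each library. Gm28437, a copy of mt-Co3, was at 99.5% to 99.9% of mt-Co3, and Atp6-ps at 101% to 102% of mt-Atp6. Gm10222 stood at 105% to 108% of mt-Nd4l, Gm29216 at 71.2% to 86.5% of mt-Co1, Gm28438 at 74.8% to 84.1% of mt-Nd3 and Gm28439 at 36.8% to 40.6% of mt-Nd4. None of the 7 was called (log2 fold change -0.99 to -0.60; limma, adjusted p between 0.12 and 0.225). The other 5 genes, on chromosomes 2, 4 and 13, aligned with 92.5% to 97.6% identity and stood at 5.96% or less of their match.

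**Figure D4:**
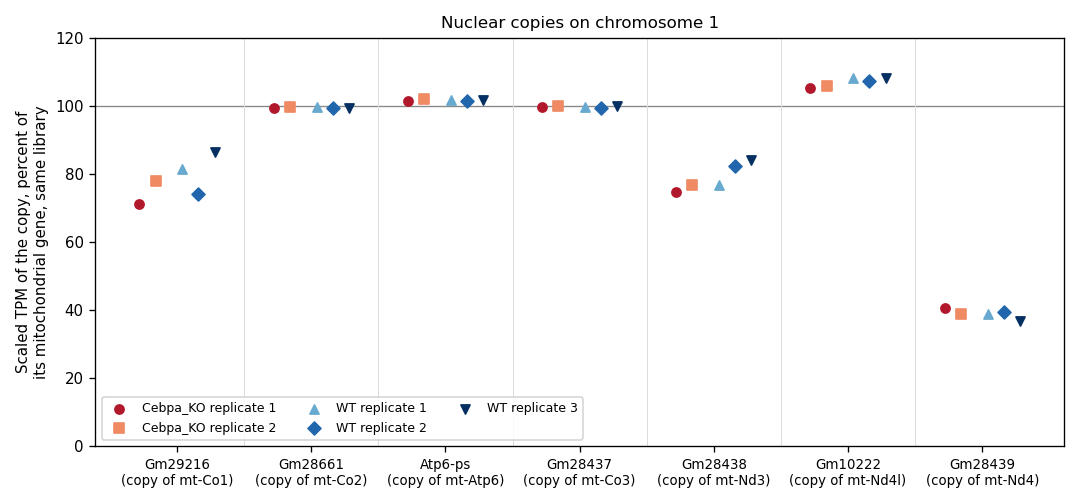
Level of each of 7 nuclear copies on chromosome 1 as a percent of the scaled TPM of its mitochondrial gene in the same library, with 1 point per library and Cebpa_KO left of WT; the line marks 100%. Copies of mt-Co2, mt-Atp6 and mt-Co3 sit within 2% of the line in all 5 libraries, and the copy of mt-Nd4 is at 36.8% to 40.6%.

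The difference between groups was of like size outside the copied stretch. The 5 protein genes outside it, mt-Nd1, mt-Nd2, mt-Nd5, mt-Nd6 and mt-Cytb, summed to 2572 and 2806 in Cebpa_KO libraries and to 3006, 3819 and 6026 in WT libraries, a ratio of group means of 0.628. The 8 inside or partly inside it summed to 5708 and 5949 in Cebpa_KO libraries and to 6939, 8744 and 14922 in WT libraries, a ratio of 0.571. With the 7 copies added to the 13 genes the ratio was 0.575. Levels compared between genes, such as ranks and shares of the sum, mix genes inside and outside that stretch.

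With all 5 libraries, none of the nuclear genes listed for replication, transcription and RNA processing of the mitochondrial genome was called lower. The calls needed both Cebpa_KO libraries: with either left out, none of the nuclear genes named from here on was called, and only 9 or 5 of all genes tested were higher. Of 14 genes that copy and package mitochondrial DNA, limma called 3 higher in Cebpa_KO and 0 lower, beside 9.93% and 9.82% of all genes. Top1mt, the mitochondrial topoisomerase, was at 22.6 and 21.4 in Cebpa_KO libraries and at 9.81, 9.92 and 10.2 in WT libraries (log2 fold change 1.07 ± 0.10 (SE), limma, adjusted p = 0.00682). Atad3a, a membrane ATPase tied to nucleoids, averaged 109 ± 1.26 in Cebpa_KO and 51.6 ± 8.66 in WT, and Top3a, another topoisomerase, averaged 19.8 ± 0.849 in Cebpa_KO and 13.9 ± 0.0503 in WT (SD, n = 2 in Cebpa_KO and 3 in WT). Both were called higher (limma, adjusted p = 0.0125 and 0.0294), while Dna2, a nuclease and helicase, was at 17.0 ± 0.350 in Cebpa_KO and 9.50 ± 2.44 in WT and was not called (limma, adjusted p = 0.0602). Tfam, which packages and transcribes the genome, was at 35.0 and 31.1 in Cebpa_KO libraries and at 31.7, 28.1 and 23.0 in WT libraries (limma, adjusted p = 0.279).

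Among 11 transcription genes limma called 1 higher, near the 9.93% of all genes. It was Mrpl12, a mitochondrial ribosomal protein also described as a partner of the mitochondrial RNA polymerase. Mrpl12 was at 203 and 213 in Cebpa_KO libraries and at 114, 104 and 124 in WT libraries (limma, adjusted p = 0.00829). The polymerase gene Polrmt was at 26.9 and 24.6 in Cebpa_KO libraries and at 22.1, 22.4 and 23.8 in WT libraries and did not pass (limma, adjusted p = 0.264). Mterf1a and Mterf1b, related to the human transcription termination factor, averaged 6.68 ± 0.424 and 4.68 ± 0.0538 in Cebpa_KO, against 14.2 ± 4.07 and 7.55 ± 1.02 in WT, and Tefm, an elongation factor, 25.5 ± 1.19 in Cebpa_KO and 18.2 ± 2.38 in WT (SD, n = 2 and 3). These 3 genes did not pass the threshold (limma, adjusted p = 0.0537, 0.0514 and 0.0678), and their samples did not overlap. Of the 11 genes, 4 lay above all WT libraries in Cebpa_KO and 3 below, beside 28.7% and 28.0% of all genes tested. Without WT replicate 3, limma called 3 of the 11 lower, where 11.5% of all genes were: Mterf1a, Mterf1b and their relative Mterf2 (adjusted p = 0.0117, 0.0404 and 0.0263). With WT replicate 3 as the sole WT library it called 1 lower, Mterf3 (adjusted p = 0.0409), where 4.16% of all genes were. Mterf2 and Mterf3 were named after their values were seen.

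For RNA processing, modification and turnover, 12 of 44 genes were called higher by limma and 0 lower, beside 9.93% and 9.82% of all genes, with a median log2 fold change of 0.27. Rexo2, an exonuclease for short RNA fragments, was at 318 and 299 in Cebpa_KO libraries and at 187, 194 and 174 in WT libraries (log2 fold change 0.74 ± 0.08 (SE), limma, adjusted p = 0.00882). Nsun2, an RNA methyltransferase with cytosolic as well as mitochondrial targets, averaged 108 ± 0.893 in Cebpa_KO and 58.3 ± 6.06 in WT. Mrm3, which methylates mt-Rnr2 RNA, was at 29.4 ± 0.117 in Cebpa_KO and 15.1 ± 2.14 in WT, and Fastkd2, which binds mitochondrial RNA, at 16.8 ± 1.29 in Cebpa_KO and 9.72 ± 0.334 in WT (SD, n = 2 and 3). Limma called each of them (adjusted p = 0.00985, 0.0145 and 0.0162). The count of 12 became 0 without either Cebpa_KO library, 7 without WT replicate 1, where 6.03% of all genes were called higher, and 3 without WT replicate 2, where 2.74% were.

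The nuclear partners of the mitochondrial messages had a median above 0, where that of the messages was below it. Of 73 nuclear subunits of the respiratory chain and ATP synthase, limma called 16 higher and 0 lower, beside 9.93% and 9.82% of all genes. Their median log2 fold change was 0.25, against -0.74 for the 13 mitochondrial protein genes, 0 of which were called. Ndufa12 of complex I was at 205 and 222 in Cebpa_KO libraries and at 127, 130 and 114 in WT libraries (limma, adjusted p = 0.00923). Uqcrq of complex III averaged 151 ± 5.26 in Cebpa_KO and 106 ± 2.55 in WT, Atp5f1e of ATP synthase 375 ± 16.0 in Cebpa_KO and 252 ± 18.8 in WT, and Cox7b of complex IV 183 ± 3.75 in Cebpa_KO and 139 ± 4.60 in WT (SD, n = 2 in Cebpa_KO and 3 in WT; limma, adjusted p = 0.0136, 0.0174 and 0.0227). WT replicate 3, the highest library for all 13 mitochondrial protein genes, was the lowest for the sum of the 73 nuclear genes. That sum was 22780 and 22318 in Cebpa_KO libraries and 19644, 18422 and 18011 in WT libraries. Without WT replicate 3 the median of the 73 was 0.22, and 17 were called higher, where 13.7% of all genes were. Without WT replicate 2 there were 3, and without either Cebpa_KO library 0. The test of a difference between the lists was not made.

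**Figure D5:**
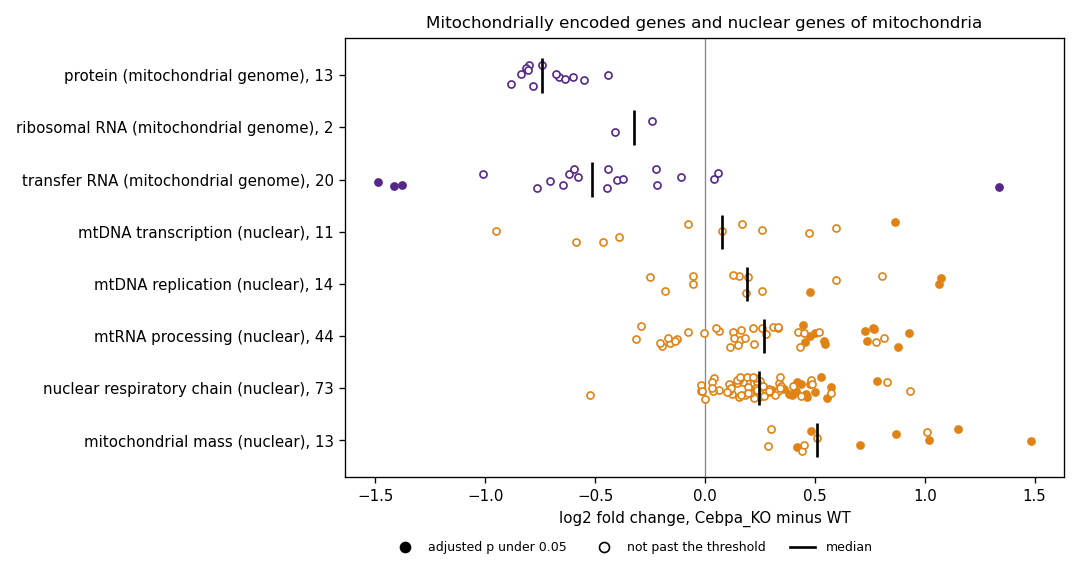
Log2 fold change, Cebpa_KO minus WT, of each tested gene in the 3 classes of the mitochondrial genome (top, purple) and in 5 lists of nuclear genes that act in mitochondria (orange), with the number of genes beside each name; filled points passed an adjusted p of 0.05 in limma and black bars are medians. The median is -0.74 for the 13 protein genes of the mitochondrial genome and 0.25 for the 73 nuclear respiratory chain subunits.

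Of 13 nuclear genes listed for mitochondrial mass, limma called 7 higher and 0 lower, beside 9.93% and 9.82% of all genes. Their median log2 fold change was 0.51, and mass itself was not measured. Phb1, a prohibitin of the inner membrane, was at 189 and 201 in Cebpa_KO libraries and at 92.9, 90.7 and 103 in WT libraries (log2 fold change 1.02 ± 0.09 (SE), limma, adjusted p = 0.00633). Hspd1, the matrix chaperonin, averaged 355 ± 16.9 in Cebpa_KO and 160 ± 17.3 in WT, and the import channels Timm23 and Tomm40 averaged 189 ± 2.52 and 192 ± 3.64 in Cebpa_KO, against 115 ± 4.84 and 105 ± 10.2 in WT (SD, n = 2 and 3). Each was called (limma, adjusted p = 0.00682, 0.00758 and 0.00946). Hspd1 is also a stress-induced chaperone. The listed stress and immediate early genes summed to 8858 and 9242 in Cebpa_KO libraries and to 2614, 2599 and 7804 in WT libraries. The 13 mass genes summed to 4076 and 3576 in Cebpa_KO libraries and to 2576, 2455 and 2280 in WT libraries. The part of stress in these calls was not tested.

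Among regulators of mitochondrial biogenesis, 8 of 11 could be tested, and limma called 2 higher and 1 lower, beside 9.93% and 9.82% of all genes, so the lower count is near that share. Myc was at 252 and 211 in Cebpa_KO libraries and at 113, 117 and 138 in WT libraries (log2 fold change 0.91 ± 0.13 (SE), limma, adjusted p = 0.0128). Pprc1, a coactivator of the PGC-1 family, averaged 29.7 ± 5.76 in Cebpa_KO and 15.6 ± 1.603 in WT (SD, n = 2 and 3; limma, adjusted p = 0.0224). Esrra, a nuclear receptor that works with PGC-1 coactivators, was lower, at 8.42 and 8.85 in Cebpa_KO libraries and at 12.6, 16.6 and 16.6 in WT libraries (limma, adjusted p = 0.0313). Gabpb1, a subunit of nuclear respiratory factor GABP, averaged 51.5 ± 1.06 in Cebpa_KO and 43.6 ± 2.63 in WT and was not called (limma, adjusted p = 0.119). Ppargc1a itself stayed at 0.0546 or less in every library.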

How the data were processed

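Per the file headers, the columns of the 5 abundance tables are coverage, FPKM and TPM. STAR 2.7.11b, StringTie 2.1.3b and the build mm39 are listed in the submitters' processing notes. Annotation release, strand handling and read length: not given in the sources used here. The deposited TPM column is handled as a score, because each signal appears in that column as an assembled locus and again as an annotated gene. Annotated gene rows were used. FPKM and the coverage signal per base, both deposited by the authors, gave the depth and alternative levels. The tables hold no read counts, which leaves no basis for count models, counting intervals or detection floors.

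TPM was summed per gene ID. Each library was scaled by its median ratio to a geometric mean reference over genes at 1 TPM or more throughout. Genes at 1 TPM or more in 2 or more of the 5 libraries were tested on log2(scaled TPM + 1), a scale that understates changes of low genes, with limma 3.58.1 in R 4.3.3 (intensity trend, Benjamini-Hochberg adjustment over all 16254 genes, threshold 0.05, no covariate). "Called" means past that threshold. The fit was tested on simulated data. The named genes are all members, Cebpa, up to 4 genes of each nuclear list with the smallest p, and those set beside a result; Tfam, Polrmt, Mterf2, Mterf3, Ppargc1a, Foxp3, Xist and the nuclear copies found by sequence were named after their values were seen. Members and lists were chosen with earlier results of these data known. Sequences were read with biopython 1.88, tables handled in pandas 2.3.3 with numpy 2.4.6, and figures made in matplotlib 3.10.9.

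Alternatives were quantile normalization, unscaled TPM, pseudocounts of 0.1 and 5, a stricter filter (5 TPM) or none, TPM without mitochondrial genes, FPKM, no trend, robust estimation, array weights, each library left out, WT replicate 3 as the sole WT library, assembled loci and a replicate block. Levels from coverage, the sum without mt-Ts1, the sum with nuclear copies and the sum outside the copied stretch were added after seeing the data.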

Additional observations from a re-analysis of the deposited data

How the results depend on the processing

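The ratios of summed levels, Cebpa_KO over WT, stayed below 1 in each alternative run. Protein genes called lower numbered 2 with array weights, where 2440 of all genes were, and 0 to 2 with 1 WT library left out. Transfer RNA genes called lower numbered 0 with no filter, 9 with WT replicate 3 alone and 0 to 7 with 1 library left out. The 1 higher call among them became 0 with a pseudocount of 5, a filter at 5 TPM, no filter, WT replicate 3 alone, the replicate block and in every fit with 1 library left out (0 to 0). Over all genes, higher calls numbered 930 with no filter, 2575 with array weights, 1014 with WT replicate 3 alone and 5 to 2177 with 1 library left out. Lower calls numbered 629, 2440, 647 and 18 to 1825 under those settings and 1050 with the block. Higher calls among RNA processing genes numbered 7 with no filter, 4 with WT replicate 3 alone and 0 to 12 with 1 library left out. Nuclear respiratory chain genes called higher numbered 5 with no filter, 8 with no trend, 28 with array weights, 6 with the block and 0 to 17 with 1 library left out. Among the 16254 genes tested, 1425 were called higher with no trend and 1359 with the block. Under these settings the counts of 8 and 6 among the 73 were near the share of all genes. The log2 fold change of mt-Rnr1 turned to 0.018 without WT replicate 3 (-0.40 to 0.018 with 1 library left out) and to 0.022 with the block. That of Cebpa, with 1 library left out, lay between -3.54 (adjusted p = 0.0512 in limma, without Cebpa_KO replicate 2) and -3.27; with pseudocounts of 0.1 and 5 it was -4.79 and -1.83, and with FPKM -2.59, each called. Apart from scaling, the replicate block leaves WT replicate 3 out of the fold change, because no Cebpa_KO library shares its number. The cause of the other changes was not tested.

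Groups share replicate numbers 1 and 2, but nothing pairs the pools. Deviations of same-numbered libraries had r = -0.18 and r = 0.27 over 16254 genes. With the replicate number as a block, 3 transfer RNA genes, mt-Tq, mt-Tm and mt-Ts1, were called lower by limma, where 1050 of all genes were. Without counts the depth behind a single gene is known only as coverage, which was under 10 in at least 1 library for mt-Ti, mt-Tq, mt-Tr and mt-Ts1, among other transfer RNA genes.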
